A study of Mus musculus with 15 samples.

Results

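The circadian clock genes examined here were 10 core members, Arntl, Clock, Per1, Per2, Cry1, Cry2, Nr1d1, Nr1d2, Dbp and Nfil3. They were taken by gene name from the scanner files, with every probe that was not a control, which gave 14 probes of the 55680 distinct probes and 10 of the 34821 gene names on the array. All 10 passed the filter on dim signal that left 26001 genes for testing. The arrays measured RNA of CD4 T cells sorted from the small intestinal lamina propria, the connective tissue under the gut lining, of male mice. The groups were day 30 of a high-fat diet, day 10 of that diet and normal chow as the control, with 5 one-colour Agilent arrays each. The labels name no strain, genotype, age or hour of sampling. They are also silent on whether each sample of a group is a different mouse, so the p-values cover the spread among samples only, and that spread could be technical.

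The clock is a feedback loop of transcription factors. The proteins of Arntl (also named Bmal1) and Clock pair up and switch on genes that carry an E-box, among them the Per and Cry genes, and PER and CRY proteins then enter the nucleus and hold that pair in check. A second loop runs through Nr1d1 and Nr1d2, which encode the nuclear receptors REV-ERB alpha and beta and repress Arntl. Dbp and Nfil3 encode factors that bind the same D-box sites, Dbp as an activator and Nfil3 as a repressor, and carry the rhythm to output genes. Arntl and Nr1d1 peak at opposite times of day in rhythmic mouse tissues, and since no hour is labelled, the levels below cannot be placed on a daily cycle.

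A level is the log2 of a probe's processed intensity minus the 75th percentile of its own array, so 0 is the signal that 3 in 4 spots do not exceed. Levels of different probes are not set against each other, because probes bind with different strength. A spot is called well above background by the scanner software. Of all spots, 51.3% ± 5.48 were well above background at day 30, 58.5% ± 2.91 at day 10 and 63.8% ± 12.0 in controls (SD, n = 5 each), with a range over arrays of 45.2% to 82.0%. The highest share, 82.0%, belonged to control replicate 1, which stood apart from the other arrays. All 10 CD4 T cell markers on the list (Cd3e, Cd4, Lck and others) were well above background on all 15 arrays. So were 2 of 8 epithelial markers (Krt18 and Pigr) and 3 of 7 measured B cell and plasma cell markers (Pax5, Igj and Cd22). The part of other cells in the clock gene values was not tested. Slide 1 held the 5 controls and day 10 replicates 1 to 3, and slide 2 held day 10 replicates 4 and 5 and the 5 day 30 arrays. No slide held both day 30 and control arrays, so for that comparison slide and diet can be separated only through the day 10 arrays.

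A pair of probes each was present for 4 members, and the first 30 bases of these 8 probes are shown because the 2 probes of a gene did not always give the same pattern. Positions are those of the array annotation, build mm9, and whether a probe lies in an exon or an untranslated region was not checked here. The first named of each pair is the brighter one, which stands for the gene in the tests.
Per1, probe A_55_P2019327, chr11:68919895-68919954 (+): ttagtgtttcagggcagtagaggtggccgg
Per1, probe A_55_P1970033, chr11:68923364-68923423 (+): gtgttctcagctctaccctctaccaatgac
Cry2, probe A_55_P1953708, chr2:92251417-92251476 (-): tcctcctgagtgctggaaattcagatacga
Cry2, probe A_55_P2016540, chr2:92243807-92243866 (-): tctcccacagtttgtttgtgaatatttacc
Nr1d2, probe A_52_P303891, chr14:19037253-19037312 (-): ccagaactgttagtattgcttgtgatgctt
Nr1d2, probe A_55_P2148534, chr19:40271435-40271494 (+): ctgtgaggggagctcagatagatgtatctt
Dbp, probe A_55_P2032079, chr7:52965461-52965520 (+): tggggaacccatccatccaaccgcctccat
Dbp, probe A_55_P2032081, chr7:52965322-52965381 (+): atggccagtggtctggccagctaggtgccc
The Per1 probes start 3469 bases apart, those of Cry2 7610 bases apart and those of Dbp 139 bases apart. The brighter Per1 probe is annotated with a cDNA clone and the dimmer one with the RefSeq transcript of Per1. The brighter Cry2 probe is annotated with transcript variant 2 and the other with transcript variant 1. The dimmer Nr1d2 probe is annotated on chromosome 19, away from the gene's own position on chromosome 14. The 6 members with a single probe were annotated at chr7:120457261-120457320 (Arntl), chr5:76641377-76641436 (Clock), chr1:93313046-93313105 (Per2), chr10:84594731-84594790 (Cry1), chr11:98630526-98631028 (Nr1d1) and chr13:53062578-53062637 (Nfil3). The interval given for Nr1d1 spans 503 bases, longer than its 60-base probe.

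The RefSeq promoter table (build GRCm38.p6, 250 bases before to 50 bases after a gene's start) held 9 of the 10 members, all but Per2, in 13 windows. The E-box CACGTG, which reads the same on both strands, was in 2 of these 13 windows, 1 each of Per1 and Cry1, and 7.15% of all 32851 windows hold it. Both stretches are shown with the E-box in capitals, because this is the site that the Arntl and Clock proteins are known to bind.
Per1, chr11:69098756-69098815 (+), GRCm38.p6: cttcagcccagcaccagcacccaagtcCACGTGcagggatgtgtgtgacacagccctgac
Cry1, chr10:85185082-85185141 (-), GRCm38.p6: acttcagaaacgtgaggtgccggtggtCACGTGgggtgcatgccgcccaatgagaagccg
The Per1 match starts 166 bases before one of that gene's annotated starts, and the Cry1 match 60 bases before its start. The D-box TTANGTAA, searched on both strands, was in 0 of the 13 windows, against 2.32% of all windows. The half-site AGGTCA, which REV-ERB receptors recognise, was found on either strand in 5 of the 13 windows, 1 each of Arntl, Clock, Per1, Nr1d2 and Nfil3, against 16.3% of all windows. These are matches of letters in short windows and do not show that a factor binds there.

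None of the 10 clock genes was called in any comparison by limma at an adjusted p of 0.05, nor was any of the 26001 genes tested (0%). At an unadjusted p under 0.05 there were 0 clock genes for day 30 versus control, where 5.22% of all genes passed. The count was 1 for day 30 versus day 10, where 4.12% passed, and 0 for day 10 versus control, where 2.61% passed. In no comparison were the 2 groups of a clock gene free of overlap, and over all genes this was so for 0.646%, 0.585% and 0.427% in the same order. Both diet groups are compared with the same 5 control arrays. The number of arrays limits the precision. Standard errors of the differences ran from 0.45 log2 units for Dbp to 1.24 for Nr1d1, and a p that misses the threshold does not show that a level stayed the same. In RNA from a pool of cells, fewer cells with a transcript and less of it per cell cannot be told apart. Values below are in the order of replicates 1 to 5.

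**Figure D1:**
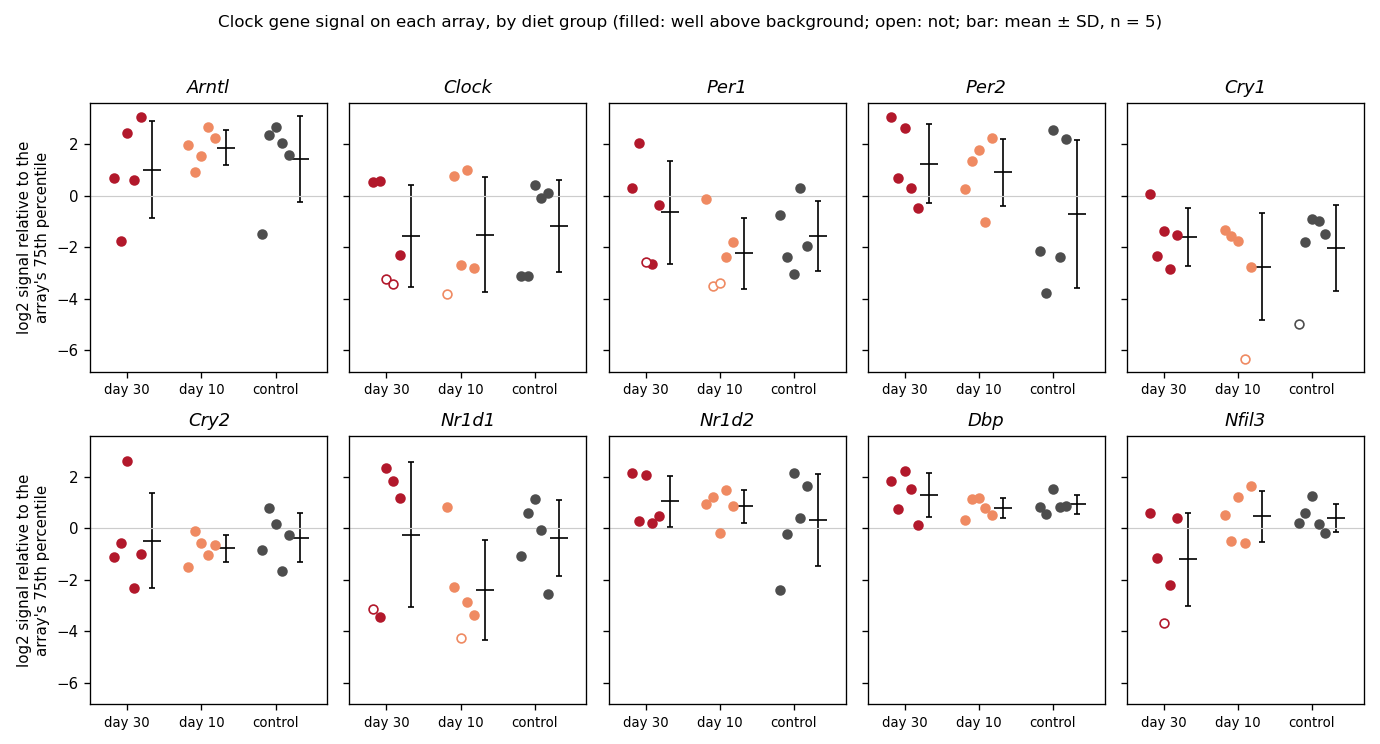
Level of each clock gene (y axis, log2 signal relative to the array's 75th percentile) on the 5 arrays of day 30, day 10 and control, as points, filled where the spot was well above background and open where it was not, with the mean and SD as bars. The groups overlap in all 10 panels, and Per2, Clock and Nr1d1 spread widely within a group while Dbp stays between 0.11 and 2.21.

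Arntl, whose protein pairs with that of Clock, was well above background on all 15 arrays. It read 0.66, -1.75, 2.42, 0.61 and 3.06 at day 30, 1.96, 0.91, 1.53, 2.67 and 2.22 at day 10, and -1.51, 2.35, 2.65, 2.06 and 1.57 in controls. Day 30 replicate 2 and control replicate 1 were far below the rest, and the groups overlapped. The mean was 1.00 ± 1.88 at day 30, 1.86 ± 0.67 at day 10 and 1.42 ± 1.69 in controls (SD, n = 5 each), and the difference was -0.42 (95% interval -2.28 to 1.44) for day 30 versus control, -0.86 (-2.72 to 1.00) for day 30 versus day 10 and 0.44 (-1.42 to 2.30) for day 10 versus control. A single array set the sign of some of these values. Without control replicate 1 the difference of day 10 from control was -0.30, and without day 30 replicate 2 that of day 30 from control was 0.27.

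Clock, whose protein completes the activating pair, was well above background on 3 of 5 arrays at day 30, 4 of 5 at day 10 and 5 of 5 in controls. Its levels were 0.52, 0.55, -3.24, -3.43 and -2.30 at day 30, -3.82, 0.77, -2.69, 0.98 and -2.80 at day 10, and -3.11, -3.12, 0.40, -0.09 and 0.09 in controls. In every group some arrays lay near or above 0 and the others at -2.30 or lower, with no array in between. The differences were -0.41 (95% interval -2.90 to 2.08) for day 30 versus control, -0.07 (-2.56 to 2.42) for day 30 versus day 10 and -0.34 (-2.83 to 2.14) for day 10 versus control. Single arrays moved all 3 values. The difference of day 30 from day 10 was -0.64 without day 10 replicate 1 and 0.55 without day 10 replicate 4, and that of day 10 from control was 0.23 and -0.97 in the same way. The difference of day 30 from control was -0.94 without day 30 replicate 1 and -0.95 without day 30 replicate 2.

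Per1, a repressor that also responds early to outside signals in many cell types, was detected on 4 of 5 day 30 arrays, 3 of 5 day 10 arrays and 5 of 5 control arrays with its brighter probe. That probe, annotated with a cDNA clone, read 0.30, 2.03, -2.58, -2.67 and -0.35 at day 30, -0.12, -3.50, -3.40, -2.38 and -1.79 at day 10, and -0.75, -2.40, -3.05, 0.31 and -1.94 in controls. Day 30 replicate 2 was the highest of all 15 arrays, and the groups overlapped. The difference was 0.91 (95% interval -1.15 to 2.98) for day 30 versus control, 1.59 (-0.48 to 3.65) for day 30 versus day 10 and -0.67 (-2.74 to 1.39) for day 10 versus control. Without day 30 replicate 2 the difference of day 30 from control was 0.24 and that of day 30 from day 10 was 0.92.

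Per2, the second period gene and a repressor like Per1, was well above background on all 15 arrays and had the widest range of the 10 genes. Its levels were 3.06, 0.68, 2.62, 0.29 and -0.47 at day 30, 0.26, 1.33, 1.76, -1.01 and 2.22 at day 10, and -2.14, -3.77, 2.53, -2.37 and 2.19 in controls. Of the control arrays, 3 were at -2.14 or lower and 2 were at 2.19 or higher, while none of the 10 diet arrays was below -1.01. The mean was 1.24 ± 1.53 at day 30, 0.91 ± 1.30 at day 10 and -0.71 ± 2.88 in controls (SD, n = 5 each). The difference was 1.95 (SE 1.16, 95% interval -0.51 to 4.41, unadjusted p = 0.112, limma adjusted p = 0.922) for day 30 versus control. For day 10 versus control it was 1.62 (95% interval -0.83 to 4.08, unadjusted p = 0.180), and for day 30 versus day 10 it was 0.33 (-2.13 to 2.78). Leaving out control replicate 3, one of the 2 high controls, gave 2.76 and 2.43 against control at day 30 and day 10, and leaving out control replicate 2, the lowest, gave 1.18 and 0.86. With the share of spots well above background as a covariate, the difference of day 30 from control was -0.04.

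Cry1, a strong repressor of the activating pair, was well above background on 5 of 5 arrays at day 30, 4 of 5 at day 10 and 4 of 5 in controls. It read 0.06, -2.36, -1.36, -2.86 and -1.52 at day 30, -1.32, -1.57, -1.75, -6.36 and -2.77 at day 10, and -4.98, -1.79, -0.92, -1.01 and -1.49 in controls. The 2 lowest values, day 10 replicate 4 and control replicate 1, were the spots not above background. Its difference was 0.43 (95% interval -1.74 to 2.595) for day 30 versus control, 1.15 (-1.02 to 3.31) for day 30 versus day 10 and -0.72 (-2.88 to 1.45) for day 10 versus control. With the slide as a block, the first of these became 3.45 (SE 1.59, unadjusted p = 0.0471), and within slide 2 alone day 30 differed from day 10 by 2.96 (SE 1.27, unadjusted p = 0.0464). Both values depend on day 10 replicates 4 and 5, the only day 10 arrays on slide 2, at -6.36 and -2.77. Without day 10 replicate 4 the difference of day 30 from day 10 was 0.24, and that of day 10 from control was 0.19. Without control replicate 1 the difference of day 30 from control was -0.31 and that of day 10 from control was -1.45.

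Cry2, the second cryptochrome, was detected on every array with its brighter probe. The levels were -1.13, -0.59, 2.62, -2.33 and -1.01 at day 30, -1.53, -0.11, -0.59, -1.06 and -0.67 at day 10, and -0.83, 0.77, 0.16, -1.68 and -0.25 in controls. Day 30 replicate 3 was the highest array and day 30 replicate 4 the lowest, so the day 30 group covered the whole range of the others. The differences were -0.12 (95% interval -1.77 to 1.53) for day 30 versus control, 0.30 (-1.34 to 1.95) for day 30 versus day 10 and -0.42 (-2.07 to 1.22) for day 10 versus control. Without day 30 replicate 3, day 30 was at -0.90 against control and at -0.47 against day 10.

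Nr1d1, the REV-ERB alpha gene that closes the second loop, was well above background on 4 of 5 arrays at day 30, 4 of 5 at day 10 and 5 of 5 in controls. It read -3.15, -3.47, 2.35, 1.83 and 1.16 at day 30, 0.83, -2.30, -4.26, -2.86 and -3.37 at day 10, and -1.07, 0.61, 1.15, -0.06 and -2.58 in controls. On day 30, 3 arrays were above every control and every day 10 array, and the other two were among the lowest. At day 10, 4 of 5 arrays were at -2.30 or lower. The mean was -0.26 ± 2.82 at day 30, -2.39 ± 1.94 at day 10 and -0.39 ± 1.48 in controls (SD, n = 5 each). The difference was 2.14 (SE 1.24, 95% interval -0.50 to 4.77, unadjusted p = 0.106) for day 30 versus day 10 and -2.00 (SE 1.24, -4.64 to 0.64, unadjusted p = 0.128) for day 10 versus control, with limma adjusted p of 0.999 and 1.000. For day 30 versus control it was 0.14 (-2.50 to 2.77). The difference of day 30 from day 10 was 1.48 without day 30 replicate 3, 1.61 without day 30 replicate 4, 2.86 without day 30 replicate 1 and 2.94 without either day 30 replicate 2 or day 10 replicate 1, and it was 0.92 in the deposited table. That of day 10 from control was -2.80 without day 10 replicate 1, -1.52 within slide 1 and -0.26 in the deposited table. That of day 30 from control changed sign with single arrays, from -0.52 without day 30 replicate 3 to 0.94 without day 30 replicate 2.

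Nr1d2, the REV-ERB beta gene, was detected on all 15 arrays. Its levels were 2.16, 0.30, 2.07, 0.22 and 0.46 at day 30, 0.94, 1.19, -0.20, 1.47 and 0.87 at day 10, and -2.40, -0.21, 2.12, 0.41 and 1.65 in controls. Control replicate 1 was far below all others, which lay within a range that the groups shared. The difference was 0.73 (95% interval -0.86 to 2.32) for day 30 versus control, 0.19 (-1.40 to 1.77) for day 30 versus day 10 and 0.54 (-1.05 to 2.13) for day 10 versus control. Without control replicate 1 the values against control were 0.05 at day 30 and -0.14 at day 10.

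Dbp, the activator among the output factors, was the steadiest of the 10 by its brighter probe. The brighter probe read 1.84, 0.75, 2.21, 1.51 and 0.11 at day 30, 0.30, 1.15, 1.15, 0.78 and 0.49 at day 10, and 0.82, 0.55, 1.53, 0.81 and 0.88 in controls. All 15 arrays were above 0 and well above background, and the day 30 group held both the highest and the lowest. The difference was 0.37 (95% interval -0.58 to 1.31) for day 30 versus control, 0.51 (-0.43 to 1.46) for day 30 versus day 10 and -0.14 (-1.09 to 0.80) for day 10 versus control. These were the narrowest intervals of the 10 genes.

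Nfil3, the repressor at the same sites, read 0.59, -1.16, -3.69, -2.22 and 0.41 at day 30, 0.50, -0.49, 1.22, -0.58 and 1.62 at day 10, and 0.18, 0.57, 1.24, 0.17 and -0.19 in controls. Of the 5 day 30 arrays, 3 were below every day 10 and control array, and the other two lay among them. Only the spot of day 30 replicate 3 was not well above background. The mean was -1.21 ± 1.80 at day 30, 0.45 ± 0.99 at day 10 and 0.39 ± 0.55 in controls (SD, n = 5 each). The difference was -1.67 (SE 0.76, 95% interval -3.29 to -0.05, unadjusted p = 0.0441, limma adjusted p = 0.999) for day 30 versus day 10, with 4 of 5 day 30 arrays below the day 10 mean. It was -1.61 (SE 0.76, -3.23 to 0.01, unadjusted p = 0.0515, adjusted p = 0.922) for day 30 versus control and 0.06 (-1.56 to 1.68) for day 10 versus control. Without day 30 replicate 3 the day 30 differences were -1.05 from day 10 and -0.99 from control, and within slide 2 the difference from day 10 was -1.74 (SE 1.32, unadjusted p = 0.223). Under all alternatives tried the sign stayed the same, between -2.12 and -0.88 against day 10 and between -2.06 and -0.97 against control.

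Marker lists of other cells that express Nfil3 were read beside it. The 8 markers of CD8 T cells and natural killer cells, the second of which need Nfil3 to develop, had a mean level per array of -0.45 to 1.18 at day 30, 0.42 to 1.87 at day 10 and -0.11 to 1.54 in controls. Of these, 4 were detected on all 15 arrays, and the 7 that passed the filter gave 1 difference above 0 and 6 below for day 30 versus day 10 (median -0.41) and 3 above and 4 below for day 30 versus control (median -0.26). No marker of this list had an unadjusted p under 0.05.

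The 5 markers of group 3 innate lymphoid cells averaged -2.16 to -0.85 per array at day 30, -1.03 to 0.09 at day 10 and -1.95 to 0.10 in controls. Their median difference was -1.37 for day 30 versus day 10 (2 above 0 and 3 below) and 0.46 for day 30 versus control (3 above and 2 below), with 1 marker lower at an unadjusted p under 0.05 in each. Of all genes tested, 2.30% and 2.72% were lower at that threshold in the same order. The 7 measured markers of macrophages and dendritic cells averaged -0.97 to 0.07 per array at day 30, -1.90 to -1.08 at day 10 and -2.91 to -0.15 in controls. Of the 6 that passed the filter, 5 were above 0 and 1, Csf1r, was below for day 30 against either group, with medians of 1.00 against day 10 and 0.97 against control. At an unadjusted p under 0.05, 2 and 1 of them were higher, against 1.82% and 2.50% of all genes. For 1 of them the day 30 and control arrays did not overlap, as for 0.646% of all genes. The 10 CD4 T cell markers also gave 9 differences above 0 and 1 below for day 30 against either group. Their medians were 0.42 against day 10 and 0.36 against control, with 0 and 2 higher at an unadjusted p under 0.05. Csf1r, Cd74 and H2-Ab1 were detected on all 15 arrays. Cd14 was detected on 5, 4 and 4 arrays at day 30, day 10 and in controls, Emr1 on 4, 4 and 3, Lyz2 on 3, 0 and 3 and Itgax on 0, 0 and 1. The part of such cells in the Nfil3 values was not tested.

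**Figure D2:**
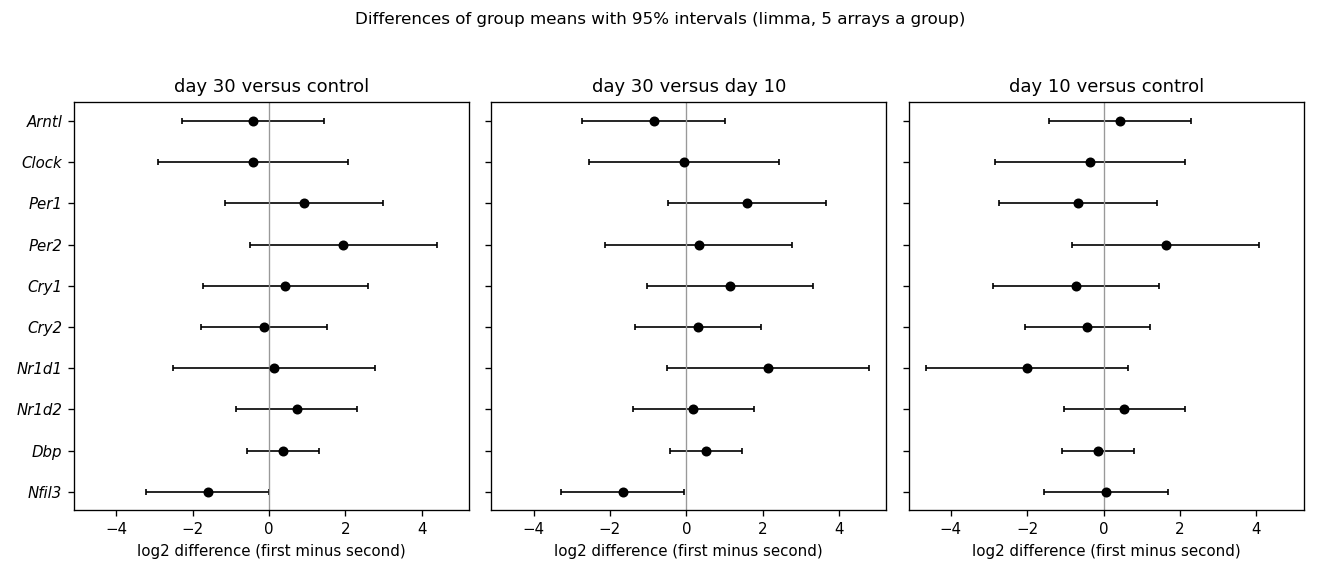
Difference of group means for each clock gene (x axis, log2 units, first group minus second) with its 95% interval from limma, for day 30 versus control, day 30 versus day 10 and day 10 versus control. The only interval that leaves out 0 is that of Nfil3 for day 30 versus day 10, from -3.29 to -0.05, and the intervals of Dbp are the narrowest.

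As a list, the 10 genes had a median difference of 0.25 for day 30 versus control (6 above 0 and 4 below), 0.31 for day 30 versus day 10 (7 and 3) and -0.24 for day 10 versus control (4 and 6). Over all genes tested the medians were -0.01, 0.05 and -0.01. One array moved the list median for day 30 versus control to -0.14 when control replicate 1 was dropped and to 0.52 when control replicate 3 was, and that for day 10 versus control to -0.38 and 0.03 in the same way. The list median for day 30 versus day 10 was 0.13 without day 30 replicate 3 and 0.59 without day 30 replicate 5. For day 30 versus control the sign of the list median also depended on the scaling: it was -0.14 with the scale set on detected probes (all genes -0.40), -0.01 in the deposited table (all genes -0.25) and -0.88 with the share of detected spots as a covariate (all genes 0.12). For day 30 versus day 10 it was 0.00, -0.03 and -0.48 under the same 3 settings (all genes -0.26, -0.15 and 0.09).

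The genes differed in how much they varied between arrays of the same group. The within-group SD was 0.58 log2 units for Dbp and between 1.23 and 2.15 for the other members, the highest being Nr1d1. The median over all tested genes was 1.38. Among the 11607 genes well above background on all 15 arrays, the median SD was 0.88. There Per2, with an SD of 2.02, stood at percentile 98.6, Arntl (1.51) at 89.4, Cry2 (1.24) at 77.1, Nr1d2 (1.23) at 76.9 and Dbp at 24.3. In folds, the highest Per2 array was 114 times the lowest, against 4.27 times for Dbp.

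**Figure D3:**
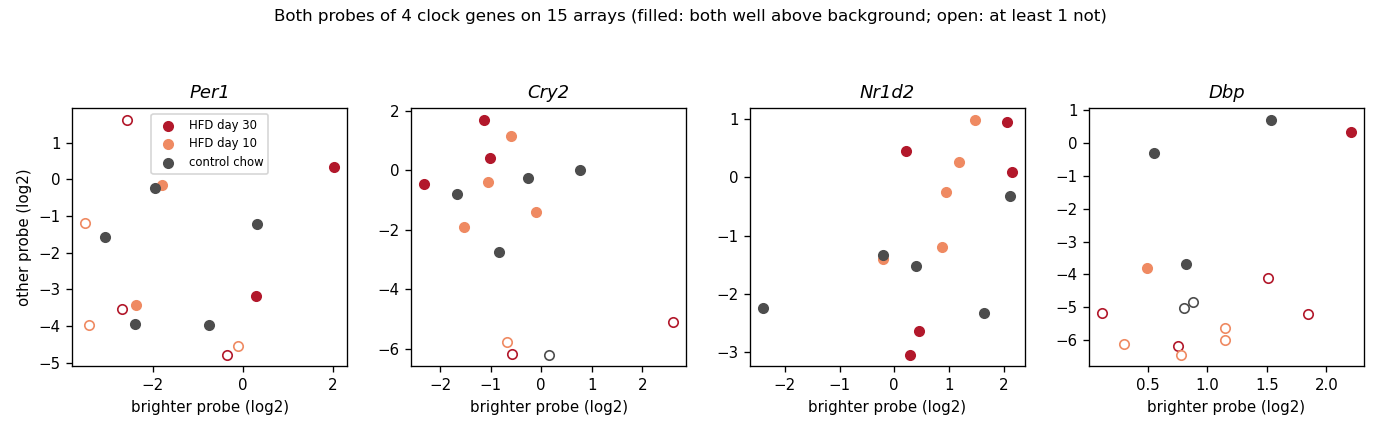
Level of the dimmer probe (y axis, log2) against that of the brighter probe (x axis, log2) for Per1, Cry2, Nr1d2 and Dbp on 15 arrays, coloured by group, open where at least 1 of the 2 spots was not well above background. The points climb together only loosely for Nr1d2 (r of 0.50) and Dbp (0.46) and show no common slope for Per1 (-0.06) and Cry2 (-0.38). The dimmer Nr1d2 probe is annotated on chromosome 19, away from the gene.

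Second probes under the same gene name were present for 4 members. That of Nr1d2 is annotated on chromosome 19, and whether it measures Nr1d2 was not checked. With group means removed, the Pearson correlation of the 2 probes over 15 arrays was -0.06 for Per1 (permutation p = 0.858), -0.38 for Cry2 (p = 0.283), 0.50 for Nr1d2 (p = 0.0445) and 0.46 for Dbp (p = 0.154). None was below 0.05 after adjustment over the 4 genes (smallest 0.178), and Spearman's rho was -0.12, -0.23, 0.50 and 0.41 (permutation p of 0.718, 0.467, 0.0646 and 0.166, smallest 0.258 after adjustment). Across the 4629 genes that have 2 probes passing the filter, the median correlation was 0.28, with the middle of the distribution between -0.01 and 0.59. The dimmer Dbp probe, 139 bases from the other, was well above background on 1 of 5 arrays at day 30, 1 of 5 at day 10 and 3 of 5 in controls. It read -5.21, -6.17, 0.32, -4.09 and -5.17 at day 30, -6.10, -5.99, -5.63, -6.43 and -3.81 at day 10, and -3.67, -0.32, 0.69, -5.02 and -4.83 in controls. The brighter probe showed no such gap between arrays. On the dimmer Dbp probe, 4 of 5 arrays of day 30, 4 of 5 of day 10 and 2 of 5 of the controls were not above background. Its differences rest largely on such spots. They were -1.43 for day 30 versus control, 1.53 for day 30 versus day 10 and -2.96 for day 10 versus control (SE 1.31 each). The last had an unadjusted limma p of 0.0381, and none was called. The brighter Dbp probe gave 0.37, 0.51 and -0.14. The dimmer Per1 probe was well above background on 3 of 5 arrays at day 30, 3 of 5 at day 10 and 5 of 5 in controls. It read -3.19, 0.33, 1.62, -3.54 and -4.77 at day 30, -4.53, -1.19, -3.97, -3.44 and -0.16 at day 10, and -3.98, -3.95, -1.57, -1.21 and -0.23 in controls. Day 30 replicate 3 was its highest array, where the brighter probe had day 30 replicate 2. Its differences were 0.28 for day 30 versus control, 0.75 for day 30 versus day 10 and -0.47 for day 10 versus control (SE 1.27 each), against 0.91, 1.59 and -0.67 for the brighter one. The dimmer Cry2 probe was well above background on 3 of 5 arrays at day 30, 4 of 5 at day 10 and 4 of 5 in controls. It read 1.69, -6.18, -5.10, -0.46 and 0.40 at day 30, -1.91, -1.40, 1.16, -0.38 and -5.79 at day 10, and -2.76, 0.00, -6.19, -0.79 and -0.25 in controls. Day 30 replicate 3, the highest array of the brighter Cry2 probe, was among its lowest. Its differences were 0.07, -0.26 and 0.34 in the same order (SE 1.65 each), each with the sign opposite to that of the brighter probe (-0.12, 0.30 and -0.42). The Nr1d2 probe annotated on chromosome 19 was well above background on all 15 arrays, and its differences were 0.71 for day 30 versus control, -0.52 for day 30 versus day 10 and 1.22 for day 10 versus control (SE 0.82 each). The probe on chromosome 14 gave 0.73, 0.19 and 0.54.

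Pairs of clock genes were compared across arrays because genes of opposite arms of the loop peak at different hours. With each group's mean removed, 30 of 45 pairs had a positive Pearson correlation over the 15 arrays and 15 a negative one, with a median of 0.08. No pair was called after adjustment over the 45 (smallest adjusted p = 0.417), and 2 pairs had an unadjusted permutation p under 0.05. Per2 and Dbp, both targets of the activating pair, had an r of 0.58 (permutation p = 0.0106, Spearman's rho 0.59, p = 0.0250), 0.57 after leaving out the 2 most extreme Per2 arrays, and 0.68 and 0.60 within slides 1 and 2. Clock and Nr1d2 had an r of 0.51 (permutation p = 0.0417, rho 0.46, p = 0.0804), and 0.68 and 0.22 within the slides. Arntl and Nr1d1, which peak at opposite times in rhythmic mouse tissues, had a positive r of 0.52 (permutation p = 0.0844, rho 0.49, p = 0.127), with 0.38 and 0.74 within the slides. Per1 and Per2 had an r of -0.28 (permutation p = 0.323), and the pair with the most negative value was Per1 and Dbp at -0.58 (permutation p = 0.0740). Arntl and Per2, from opposite arms, had 0.07 (permutation p = 0.862). The r of 0.57 between Arntl and Nr1d2 (permutation p = 0.0728) was 0.03 after leaving out the 2 most extreme Arntl arrays. Only 25 of the 45 pairs had the same sign on both slides.

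**Figure D4:**
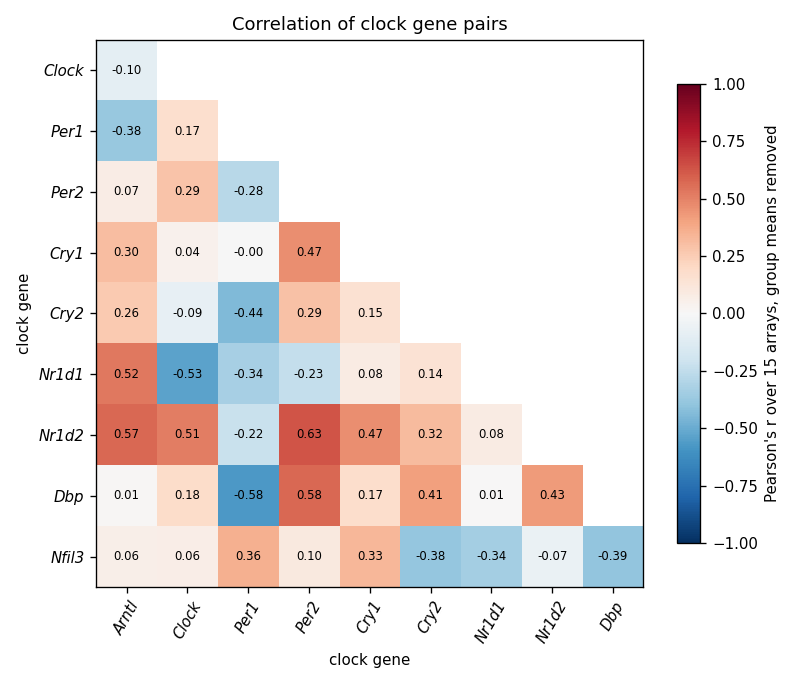
Pearson's r of each pair of clock genes over 15 arrays with group means removed, as colour and number. Nr1d2 has positive values with Arntl (0.57), Clock (0.51), Per2 (0.63) and Cry1 (0.47), and the most negative cell is Per1 with Dbp at -0.58. With the share of spots well above background removed as well, these Nr1d2 values were 0.02, 0.29, 0.24 and 0.14.

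The level of Nr1d2 moved with the share of spots that the array detected. This relation was looked at for all 10 genes after the values were seen. With group means removed, Nr1d2 had a Pearson r of -0.87 with that share (permutation p = 0.00281, 0.0281 after adjustment over 10 genes) and a Spearman's rho of -0.73 (p = 0.00885, adjusted 0.0885). With control replicate 1 and day 30 replicate 3 left out, which lay farthest from the median of that share, r was -0.67, and it was -0.89 and -0.79 within slides 1 and 2. Such a relation was not rare: of 11606 genes detected on every array, 6.27% had an r at or below that of Nr1d2 (median -0.07, quartiles -0.53 and 0.30), and of 25999 tested genes 2.83% did. Arntl had an r of -0.65 (permutation p = 0.0333, adjusted 0.167), which was -0.23 without those 2 arrays, and Per2 an r of -0.61 (permutation p = 0.0918, adjusted 0.185). Of the other 7 genes, 5 had a negative r, and none was called. Since the mean share was 51.3% at day 30, 58.5% at day 10 and 63.8% in controls, the share moved with the groups as well. With it as a covariate the Nr1d2 differences were -0.99 for day 30 versus control, -0.79 for day 30 versus day 10 and -0.19 for day 10 versus control. The difference of Arntl for day 30 versus control was then -2.00 (SE 0.87, unadjusted p = 0.0367, limma adjusted p = 0.638). After the share was removed, the r of Arntl and Nr1d2 was 0.02 and that of Clock and Nr1d2 0.29 (permutation p = 0.444). The r of Per2 and Nr1d2 fell from 0.63 to 0.24 (permutation p = 0.358) and that of Cry1 and Nr1d2 from 0.47 to 0.14 (permutation p = 0.687). Then 4 pairs had an unadjusted p under 0.05: Arntl and Nr1d1 at 0.71 (permutation p = 0.0133), Per2 and Dbp at 0.51 (p = 0.0300), Arntl and Per2 at -0.55 (p = 0.0336) and Arntl and Clock at -0.57 (p = 0.0430). None was called, with a smallest adjusted p of 0.484.

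**Figure D5:**
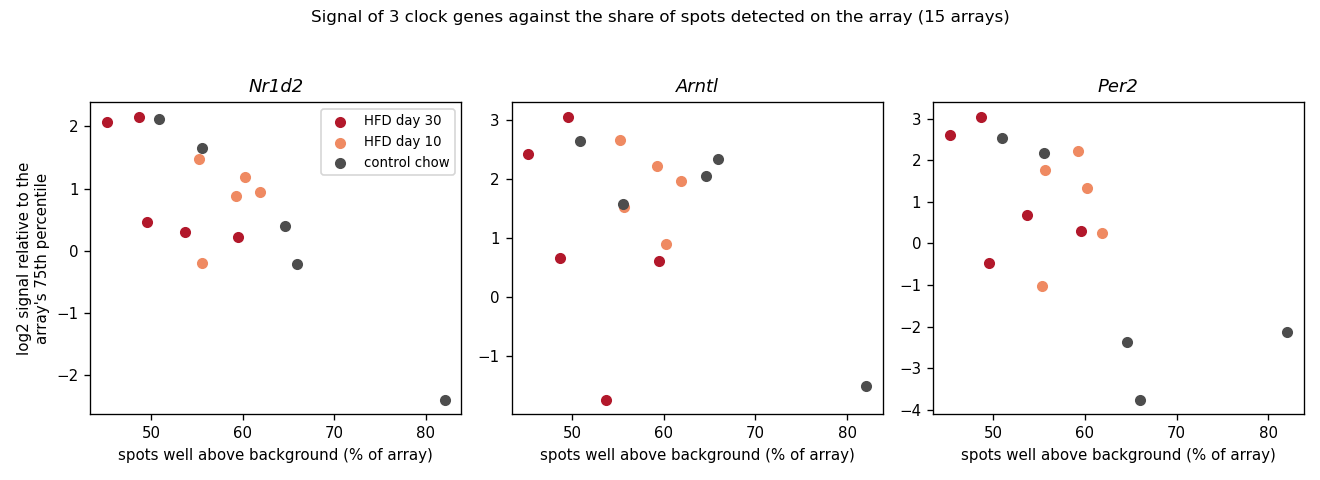
Level of Nr1d2, Arntl and Per2 (y axes, log2 relative to the array's 75th percentile) against the percent of spots well above background (x axis) on 15 arrays, coloured by group. Nr1d2 is lower where more spots were detected, and control replicate 1, at 82.0%, has the lowest Nr1d2 value, -2.40.

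Genes with a like pattern over the 15 arrays were sought among 11606 genes detected on every array, for Per2, Arntl and Nr1d2, the 3 clock genes detected on every array that varied most. Nearest to Per2 were NAP114787-1 (r of 0.85), Gbp8 (0.80) and Hilpda (0.80), the second an interferon-induced GTPase gene. Nearest to Arntl were Trim24 and Mia3 (0.89 each) and Dvl2 (0.84). Nearest to Nr1d2 were Srsf5 (0.97), a splicing factor gene, LOC101056029 (0.96) and Atp1b3 (0.96), the gene of a sodium pump subunit. No clock gene was among these 9. The points share arrays and their detected share, and the correlations are a description.

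Beyond the 10 members, 65 further names of clock regulators and outputs were followed. Of these, 62 were on the array, 54 passed the filter and 30 were well above background on all 15 arrays. None was called by limma in any comparison. At an unadjusted p under 0.05, 6 of 54 were higher and 0 lower for day 30 versus control, where 2.50% of all genes were higher and 2.72% lower. For day 30 versus day 10 the counts were 3 higher and 1 lower (1.82% and 2.30% of all genes), and for day 10 versus control 1 higher and 0 lower (0.892% and 1.72%). The list's median difference was 0.32, 0.14 and 0.05 in that order, against -0.01, 0.05 and -0.01 over all genes. For the 30 bright members, the day 30 versus control median was 0.41, against 0.20 over all genes of that kind. For day 30 versus control, the median over the 54 tested genes was -0.08 with the scale set on detected probes (all genes -0.40), -0.45 with the detected share as a covariate (all genes 0.12) and -0.16 over the 48 genes tested in the deposited table (all genes -0.25), so its sign depended on the scaling. Single arrays also moved these medians. Without control replicate 1 the median over the 54 genes was 0.03 for day 30 versus control and -0.14 for day 10 versus control, and without control replicate 3 it was 0.61 and 0.21. For day 30 versus day 10 it was 0.09 without day 30 replicate 1 and 0.26 without day 30 replicate 5. The count of 6 was also sensitive to single arrays: it was 2 without day 30 replicate 5, and 3 without control replicate 1, control replicate 2, day 10 replicate 3 or day 30 replicate 1. Processing moved this count too, to 0 higher and 3 lower of 48 genes in the deposited table. With the detected share as a covariate there were 1 higher and 3 lower, and with the scale set on detected probes 2 and 0. With the slide as a block there were 3 and 1, with normexp 4 and 0, and with quantile normalization 6 and 0. The count of 3 for day 30 versus day 10 ran from 1 without day 30 replicate 5 to 5 without day 30 replicate 4.

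Among the further clock regulators, Timeless, which encodes a replication fork protein that binds CRY proteins in mammals, averaged 1.28 ± 0.98 at day 30, -0.51 ± 1.47 at day 10 and -0.86 ± 1.67 in controls (SD, n = 5 each). Its difference was 2.13 (SE 0.85, unadjusted p = 0.0229, limma adjusted p = 0.922) for day 30 versus control, with all 5 day 30 arrays above the control mean. Tipin, which encodes the binding partner of Timeless, differed by 2.73 for day 30 versus day 10 (SE 1.10, unadjusted p = 0.0248) and by 0.43 for day 30 versus control. Its spot was well above background on 5 of 5 arrays at day 30, 4 of 5 at day 10 and 5 of 5 in controls. The D-box factor Tef, a relative of Dbp, differed by 1.49 for day 30 versus control (SE 0.70, unadjusted p = 0.04998), and its relative Hlf by 0.21. Rora, a receptor that activates Arntl, averaged 5.65 ± 0.27 at day 30, 5.45 ± 0.26 at day 10 and 4.99 ± 1.34 in controls (SD, n = 5 each). Bhlhe40, a repressor at E-boxes, was at 2.29 ± 0.50, 2.26 ± 0.50 and 1.86 ± 1.72 in the same order.

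In the degradation branch, Usp7, a deubiquitinase, averaged 0.06 ± 1.08 at day 30, 0.26 ± 0.70 at day 10 and -2.04 ± 1.64 in controls (SD, n = 5 each). The difference was 2.11 (SE 0.76, unadjusted p = 0.0138) for day 30 and 2.30 (SE 0.76, unadjusted p = 0.00809, limma adjusted p = 1.000) for day 10, both against the same controls. Ube3a, a ubiquitin ligase, differed by 2.39 for day 30 versus control (SE 1.11, unadjusted p = 0.0471). Cul1, a scaffold of the ligase that marks PER and CRY, differed by -2.22 for day 30 versus day 10 (SE 1.04, unadjusted p = 0.0480). Usp7 and Ube3a were each well above background on 4 of 5 control arrays and 5 of 5 arrays of either diet group. Cul1 was well above background on 3 of 5 arrays at day 30, 5 of 5 at day 10 and 5 of 5 in controls. All 9 tested genes of this branch gave 6 differences above 0 and 3 below for day 30 versus control.

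Of 10 tested kinase and phosphatase genes, none passed an unadjusted p of 0.05 in any comparison, and Csnk1a1, a casein kinase gene, differed by 0.40 for day 30 versus control. Among 11 co-regulators, Sirt1, a deacetylase that acts on clock proteins, differed by 3.40 for day 30 versus day 10 (SE 1.22, unadjusted p = 0.0134), with 5 of 5 arrays detected at day 30, 2 of 5 at day 10 and 4 of 5 in controls. Crebbp, an acetyltransferase gene, was steady at 8.58 ± 0.17 at day 30, 8.43 ± 0.15 at day 10 and 8.38 ± 0.28 in controls (SD, n = 5 each). In the output group, Cirbp, a cold-inducible RNA-binding protein gene, averaged 3.22 ± 0.67 at day 30, 2.03 ± 0.74 at day 10 and 2.02 ± 1.23 in controls (SD, n = 5 each), with a difference of 1.20 from either (SE 0.56 each, unadjusted p of 0.0486 from control and 0.0489 from day 10). Rbm3, its relative, differed by 0.50 for day 30 versus control, and Leo1 by 3.35 (SE 1.26, unadjusted p = 0.0171), with 5 of 5 arrays detected at day 30 and 3 of 5 in controls. Every adjusted p in this wider list was at least 0.922 for day 30 versus control. Per3, another period gene, and Npas2, a relative of Clock, were among the 8 genes on the array that were too dim to test.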

How the data were processed

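RNA of sorted CD4 T cells was amplified with SuperAmp and labelled with Cy3, per the labels' protocols. Agilent Feature Extraction 10.7.3.1 made the deposited linear intensity values, with background subtraction inside each array and without scaling across arrays, per the file headers. In the deposited table of log2 values, 160 of 210 clock probe values were present, and how its scale was reached is not stated in those sources.

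Each array was scaled to its 75th percentile over probes that are not controls. A gene was its brightest probe, tested if well above background on at least 5 of 15 arrays. The 3 group means were estimated together by limma 3.58.1 (R 4.3.3; lmFit, then two-sided eBayes tests with an intensity trend), with Benjamini-Hochberg adjustment over all genes and a threshold of 0.05. Pairs were tested by 100000 two-sided permutations of arrays within groups. No spot was saturated (0), 1 damaged spot line was left out, and 45 probe values were missing. The scripts were tested on simulated data. The 10 members, all probes of them, were named by rule, with further clock genes named where an unadjusted p was under 0.05 and otherwise from the 3 brightest of each role, some of which are not reported here. Members and lists were chosen with earlier results of these data known. Replicate numbers were not used to pair the arrays in the main fit. Same-numbered arrays correlated between -0.13 and 0.15 after removal of group means. Of these pairs 1 of 15 exceeded 0.1, against 6 of 60 pairs with different numbers. Such low values do not settle whether the numbers pair the arrays.

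Alternatives were normexp with an offset of 50, a percentile over detected probes, quantile normalization, other filters on dim probes, a floor at background, the mean of probes, the slide, the share of detected spots, the deposited table, a replicate block and leaving out each array. The relations with the detected share and between probes were added after seeing the data.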

Additional observations from a re-analysis of the deposited data

Results flagged for a closer look

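Over 42 sets of 5 arrays (14 probes in 3 groups), 3 held an array far from the others of its group by Dixon's test, and chance alone flags about 1 in 20. Cry1 on day 10 replicate 4 was at -6.36, not above background, against -2.77 for the nearest and -1.32 for the highest of the other day 10 arrays. Cry1 on control replicate 1 was at -4.98, also not above background, against -1.79 for the nearest control. Arntl on control replicate 1 was at -1.51, against 1.57 to 2.65 for the other controls. Control replicate 1 is the array with 82.0% of spots well above background, and the part of that share in the Arntl and Cry1 values was not tested for single arrays.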

How the results depend on the processing

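The 10 clock genes gave 782 alternative values over the 3 comparisons, of which 69 had the opposite sign to the reported one, 7 moved by more than the within-group SD and 0 were called (smallest adjusted p 0.510). The 7 were Dbp under the mean of its probes (-1.55 for day 10 and -0.53 for day 30, both against control), Cry1 with the slide as a block (3.45 and 2.96) and within slide 2 (2.96), and Arntl (-2.00) and Nr1d2 (-0.99) for day 30 versus control with the share of detected spots as a covariate. The count of clock genes called was 0 under every alternative that could be run, as was the count of pairs. Over all genes the count called was 0 except for 1 for day 30 versus control with the slide as a block, and when an array was left out it ran from 0 to 2 for day 30 versus control, 0 to 2 for day 30 versus day 10 and 0 to 1 for day 10 versus control, where each 2 came without day 10 replicate 4 and the 1 without day 30 replicate 4. With a replicate block the number of clock genes called was 0 in all 3 comparisons. The deposited table allowed 9 members and 1 pair to be tested. A scale set on detected probes moved the median of all genes to -0.40 for day 30 versus control and -0.26 for day 30 versus day 10. The split of genes at an unadjusted p under 0.05 for day 30 versus control was 650 higher and 706 lower, against 230 and 1263 with that scale and 714 and 375 with normexp. Dim spots limit Clock, Per1, Cry1, Nr1d1 and Nfil3, which were not above background on every array.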
